A study of Mus musculus with 6 samples.

Results

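The genes described here are 9 nuclear genes that shape mitochondria by fusion and fission or mark them for removal by mitophagy. They were chosen by name: Mfn1, Mfn2 and Opa1 for fusion, Dnm1l, Fis1 and Mff for fission, and Pink1, Bnip3 and Bnip3l for mitophagy. All 9 were found among the 14617 genes of the deposited table. Earlier results of these data were known when they were chosen. Messenger RNA was sequenced from the tibialis anterior, the fast muscle at the front of the shin, in mice of genotype PRMT7-/- (KO, without functional Prmt7, which encodes protein arginine methyltransferase 7) and in PRMT7+/+ mice (WT), 3 of each per the labels. All were C57BL/6 and 8 months old, with no treatment named. The labels do not say how the allele was made, which part of the gene it removes, or the sex of the mice. The table gives 1 mean per genotype, from which the counts of exactly 2 libraries were recovered for every gene, called KO library 1 and 2 and WT library 1 and 2 with no link to a mouse. The headers do not say which mean is KO. The table's name puts WT before KO, the columns were taken in that order, and every direction below depends on this. Values are normalized counts, that is, reads per gene divided by a size factor per library, and coordinates are those of the deposited table in mm10.

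Mitochondria in muscle fibres fuse and divide continuously. The mitofusins Mfn1 and Mfn2 are GTPases of the outer membrane that tether and merge neighbouring mitochondria, and Opa1 is the GTPase that merges the inner membranes and keeps cristae in shape. Dnm1l encodes Drp1, a dynamin-like GTPase recruited from the cytosol to cut mitochondria, and Mff and Fis1 are outer membrane proteins, Mff being a main receptor for Drp1. Pink1 is a kinase that builds up on damaged mitochondria and marks them for removal, while Bnip3 and Bnip3l are outer membrane receptors that bind autophagosomes directly.

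The 3 fusion genes were the members that passed the authors' test, and their start regions are shown for that reason. RefSeq holds a promoter of 250 bases before to 50 after the start site for 8 of the 9 genes at the start the deposited table gives, in build GRCm38.p6 (the assembly also called mm10). Each is printed 5′ to 3′ on the gene's strand, and capitals mark matches, on either strand, to the motifs spelled out after the sequences.
Mfn1 promoter, chr3:32529232-32529531, plus strand: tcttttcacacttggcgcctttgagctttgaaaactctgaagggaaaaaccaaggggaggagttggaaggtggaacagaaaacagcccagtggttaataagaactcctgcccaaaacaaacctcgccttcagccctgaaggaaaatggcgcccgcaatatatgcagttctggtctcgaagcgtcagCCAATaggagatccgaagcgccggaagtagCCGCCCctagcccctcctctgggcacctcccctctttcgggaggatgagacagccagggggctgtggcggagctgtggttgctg
Mfn2 promoter, chr4:147904860-147905159, minus strand: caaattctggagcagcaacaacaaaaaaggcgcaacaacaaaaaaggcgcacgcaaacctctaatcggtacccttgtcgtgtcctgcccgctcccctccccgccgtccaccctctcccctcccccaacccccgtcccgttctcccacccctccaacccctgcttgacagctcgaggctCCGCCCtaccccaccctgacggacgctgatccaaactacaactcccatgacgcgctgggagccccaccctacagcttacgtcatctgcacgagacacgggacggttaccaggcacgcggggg
Opa1 promoter, chr16:29579084-29579383, plus strand: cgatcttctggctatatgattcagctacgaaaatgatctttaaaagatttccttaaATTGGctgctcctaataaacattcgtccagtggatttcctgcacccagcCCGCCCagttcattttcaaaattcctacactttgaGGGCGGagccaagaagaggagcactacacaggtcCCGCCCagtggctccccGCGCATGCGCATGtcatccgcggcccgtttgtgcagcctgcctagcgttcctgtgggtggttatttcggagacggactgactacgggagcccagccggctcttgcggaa

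Motifs were searched on both strands. The GC box was taken as GGGCGG, the CCAAT motif as the letters of its name, and the half-site of the factor NRF1 as GCGCATG. The half-site of the estrogen-related receptors was taken as AAGGTCA, and the core of the forkhead site as GTAAACA. The E-box was taken as CACGTG, and the core of the hypoxia response element, which the E-box contains, as ACGTG. The GC motif occurred once in Mfn1 and in Mfn2 and 3 times in Opa1, and 35.9% of 27025 promoters of the same length held at least 1. It was also in the windows of Dnm1l, Fis1, Mff, Pink1 and Bnip3, so it did not set the fusion genes apart. The CCAAT motif was found in Mfn1, Opa1, Dnm1l, Fis1 and Bnip3, and in 37.9% of all promoters. Opa1 held 3 overlapping matches to the NRF1 half-site, the first at position -59 from the start site, a motif found in 4.04% of all promoters and in none of the other 7 gene starts searched. Neither the estrogen-related receptor half-site nor the forkhead core was found in any of the 8 windows, against 4.66% and 3.55% of all promoters. The E-box and the hypoxia core were matched in the Bnip3 window only, against 7.24% and 19.7% of all promoters. These matches are letters in short windows and show nothing of binding.

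The 4 libraries held 22849273 to 24814798 counts in KO and 22629288 to 23695468 in WT. The Prmt7 transcript had 706 and 718 normalized counts in KO and 885 and 844 in WT (FDR 0.587 in the authors' deposited table), which neither settles the order of the columns nor checks the knockout. Fast fibre markers (8 of 8 measured) were abundant in every library, and 2 of the 8 passed the authors' test in opposite directions. Myh1, the myosin heavy chain of type IIX fibres, had 117179 and 110753 normalized counts in KO and 252508 and 246042 in WT (log2 ratio -1.13, FDR 8.08e-13). Myh4, the myosin of type IIB fibres, had 444884 and 373640 in KO and 232372 and 277492 in WT (log2 ratio 0.68, FDR 0.0113). These myosins thus moved with genotype alongside the fusion genes, and their part in the values below was not tested. Xist, expressed from the inactive X chromosome of females, had 1.82 and 1.03 normalized counts in KO and 10800 and 11546 in WT, and 4 Y-linked genes had counts in KO library 2 alone. KO library 1 thus had almost no Xist and no Y-linked counts, and these markers give it no sex. The presence of Xist and genotype cannot be told apart in these libraries. All 9 members lie on autosomes, but that does not separate their values from sex or the Xist difference, whose part was not tested. Adipocyte markers (7 of 7 measured) summed to 23023 and 15742 in KO against 16425 and 17662 in WT, and Schwann cell markers (6 of 6) to 24116 and 11646 in KO against 8261 and 8692 in WT, both highest in KO library 1. Fabp4, the largest part of the adipocyte sums, had 16581 and 14225 in KO and 14723 and 15892 in WT. The other adipocyte markers stood out more in KO library 1, as Adipoq at 1089 and 306 in KO against 265 and 284 in WT. No adipocyte or Schwann cell marker passed the authors' test. Markers of fibro-adipogenic cells and matrix (5 of 5) summed to 264793 and 210387 in KO against 157332 and 133330 in WT. Of these 5, Col3a1 alone passed the authors' test, as higher in KO (log2 ratio 0.96, FDR 0.00771). Endothelial markers (4 of 4) summed to 25505 and 24266 in KO against 31307 and 30420 in WT. Of these 2, Kdr and Flt1, passed the authors' test as lower, and the other endothelial markers did not pass. No marker of these 4 lists was at 0 in any library. The part of other cell types in the values below was not tested, and in bulk muscle fewer cells of a type and less RNA per cell cannot be told apart.

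All 3 fusion genes fell in KO muscle, by 1.37- to 1.53-fold, while the KO and WT libraries overlapped for all 3 fission genes. In the authors' deposited table, 3 of the 9 genes had a false discovery rate (FDR) under 0.05, all lower in KO; over all 14617 genes 2.71% passed and 1.7% passed as lower. The median log2 ratio was -0.29 over the 9 members and 0.01 over all listed genes. In 6 members each KO library was under each WT library, against 25.7% of all genes, in 0 each was above, against 25.8%, and in the other 3 the groups overlapped. Refitted with limma on the recovered counts, none of the 9 passed an adjusted p of 0.05 (0.889% of 14053 genes did), and 4 had an unadjusted p under 0.05 (19.6% of genes did). The 125 genes called by limma became 223 without KO library 1, 381 without KO library 2, 11 without WT library 1 and 67 without WT library 2. The authors' unadjusted p was under 0.05 for the same number, 4 (11.1% of genes). With 2 libraries against 2, the p-values measure only the spread between these libraries, which may be technical, and an exact permutation test could not go below p = 0.333, two-sided.

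Mfn1 (chr3:32529482-32579225, plus strand) had 3763 and 3520 normalized counts in the KO libraries, against 5972 and 5197 in the WT libraries. Every KO value was lower than every WT value, and the gap between the nearest pair, 0.47 on the log2 scale, was wider than the difference within either genotype (0.10 in KO and 0.20 in WT). The means were 3641 ± 172 in KO and 5584 ± 548 in WT (SD, n = 2 libraries each), a fall of 1.53-fold with an FDR of 0.00221 in the authors' deposited table. By that table's p-value it ranked 109 of 14617 genes. limma gave a log2 difference of -0.61 ± 0.12 (SE) and an adjusted p of 0.0685, above the threshold.

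Opa1 (chr16:29579334-29654602, plus strand) had 2861 and 2652 normalized counts in KO and 4108 and 3938 in WT. The genotypes did not overlap, and the nearest libraries were 0.46 apart on the log2 scale, against 0.11 within KO and 0.06 within WT. The fall was 1.46-fold (FDR 0.0122 in the authors' deposited table), and limma's difference was -0.55 ± 0.11 (SE) with an adjusted p of 0.066.

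Mfn2 (chr4:147873586-147904909, minus strand), the more abundant mitofusin, had 9212 and 8518 normalized counts in KO and 12618 and 11701 in WT. Again each KO library was below each WT library, by at least 0.35 on the log2 scale, with 0.11 between the libraries of each genotype. It fell by 1.37-fold with an FDR of 0.0442 in the authors' deposited table, close to the threshold. In limma the difference was -0.46 ± 0.13 (SE), with an adjusted p of 0.137.

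**Figure D1:**
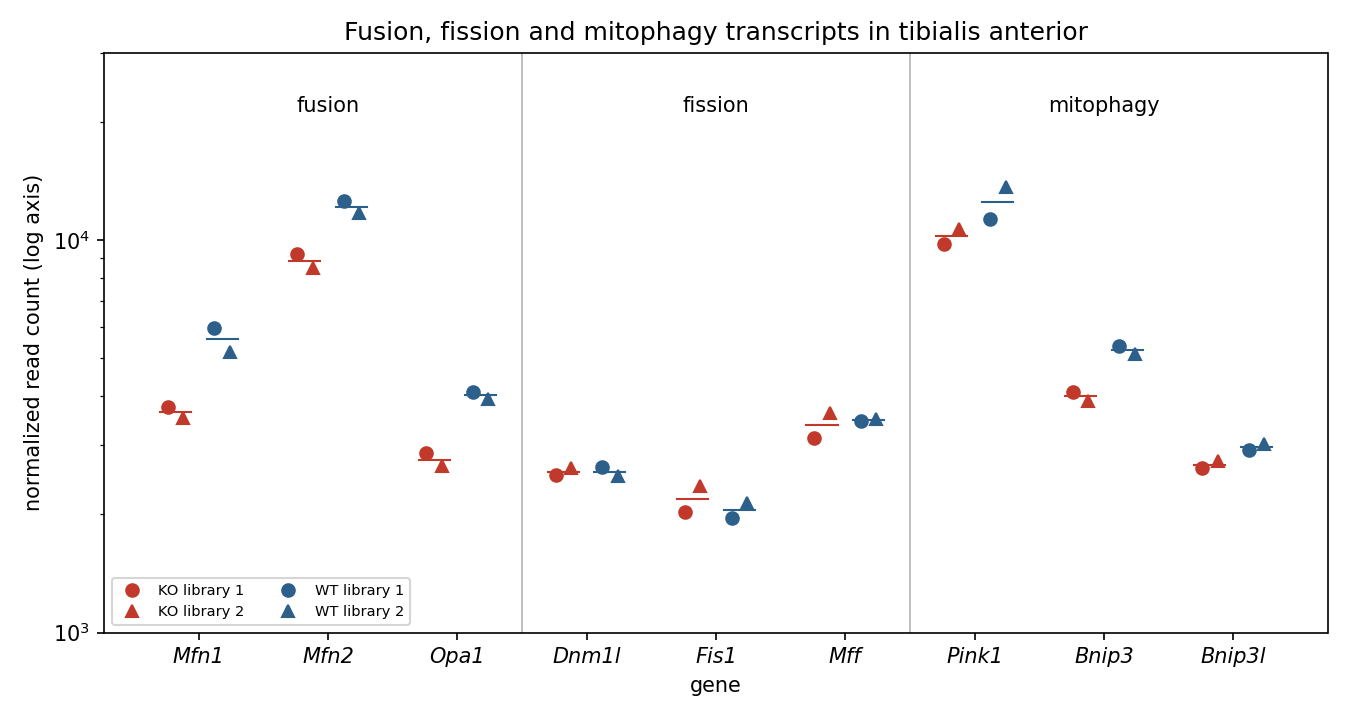
Normalized read count (log axis) of the 9 genes in each library, KO in red to the left and WT in blue to the right, with circles for library 1, triangles for library 2 and a line at each mean. The KO points of Mfn1, Mfn2 and Opa1 lie below the WT points, as for Mfn1 at 3763 and 3520 against 5972 and 5197, whereas those of Dnm1l, Fis1 and Mff overlap them.

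The fission genes did not pass in either test. Dnm1l (chr16:16312228-16359031, minus strand) had 2515 and 2628 normalized counts in KO and 2638 and 2505 in WT, with means of 2571 ± 79.5 and 2572 ± 93.7 (SD, n = 2 each). The groups overlapped fully, and limma's 95% interval of the log2 difference ran from -0.23 to 0.23. Mff (chr1:82724918-82752389, plus strand) had 3129 and 3638 in KO and 3458 and 3509 in WT, so that the KO libraries lay on either side of the WT libraries. Its limma interval was -0.32 to 0.23. Fis1 (chr5:136953275-136966234, plus strand) had 2030 and 2363 in KO and 1958 and 2143 in WT, overlapping, with an interval of -0.17 to 0.37. The limma estimates for Mfn1, Opa1 and Mfn2 lay outside all 3 intervals, the lowest bound being the -0.32 of Mff. Those estimates carry their own error, and the interval of Mfn2, -0.77 to -0.14, overlapped all 3. The interval of Opa1, -0.797 to -0.295, overlapped that of Mff. The interval of Mfn1, -0.902 to -0.326, ended just below the lower bound of Mff, -0.321. The fusion genes were not tested against the fission genes.

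The 3 mitophagy genes did not pass either. Each had both KO libraries below both WT libraries, an order that 25.7% of all genes showed. Bnip3 (chr7:138890836-138909506, minus strand) had 4094 and 3901 normalized counts in KO and 5379 and 5139 in WT. The groups were apart by 0.33 on the log2 scale, with at most 0.07 within a genotype. Its log2 ratio was -0.40 with an FDR of 0.137 in the authors' deposited table, and limma gave -0.40 ± 0.11 (SE) with an adjusted p of 0.126. Its relative Bnip3l, also called Nix (chr14:66985240-67008877, minus strand), had 2624 and 2731 in KO and 2913 and 3029 in WT, a narrow separation of 0.09 at an FDR of 0.851.

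Pink1 (chr4:138313410-138326296, minus strand) had 9764 and 10685 normalized counts in KO and 11325 and 13664 in WT. The KO libraries were lower, but the WT libraries differed from each other by 0.27 on the log2 scale, more than the 0.08 that separated the genotypes, and the FDR was 0.523 in the authors' deposited table. Counting error was at most 2.26% in a library for each of the 9 genes, which covers counting error only.

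**Figure D2:**
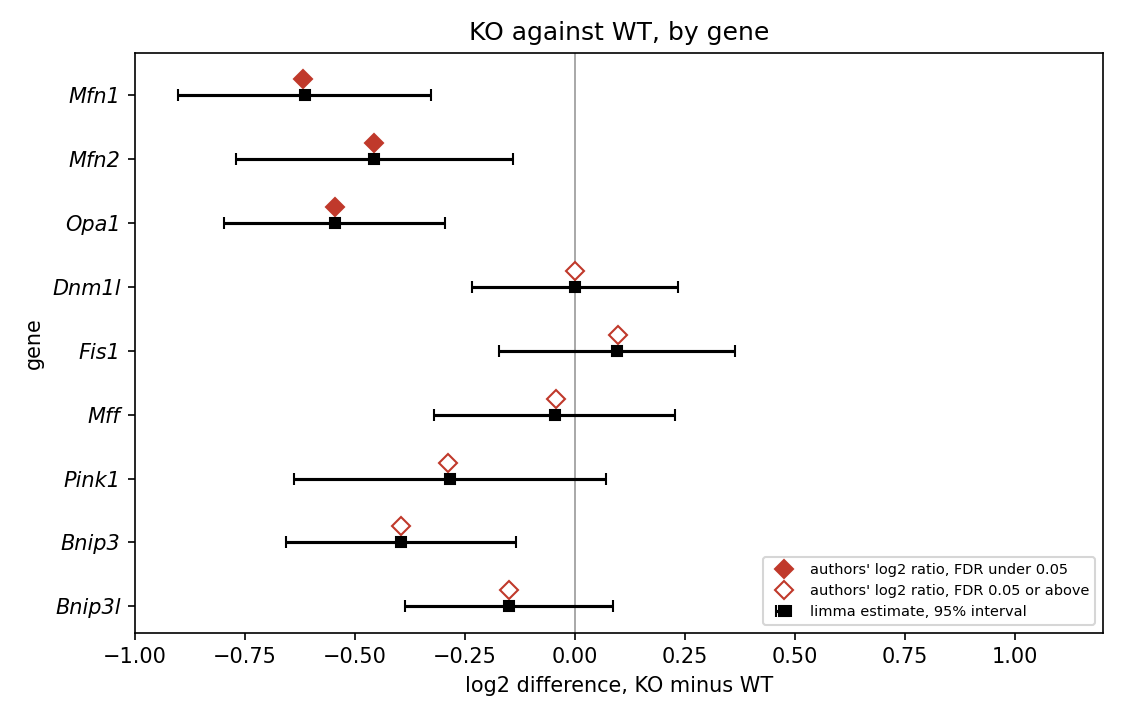
Log2 difference of each gene, KO minus WT, from limma with its 95% interval (black squares) and as the authors' log2 ratio (diamonds, filled where their FDR is under 0.05). The intervals of Mfn1, Mfn2, Opa1 and Bnip3 lie below 0 before adjustment over all genes, and that of Dnm1l is centred on 0, from -0.23 to 0.23.

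Ratios of counts within a library do not depend on how the libraries are scaled. The summed reads of the 3 fusion genes were 2.06 and 1.7 times those of the 3 fission genes in the KO libraries, against 2.82 and 2.55 times in the WT libraries. Opa1 had 1.14 and 1.01 reads for each read of Dnm1l in KO, against 1.56 and 1.57 in WT. For Mfn1 over Fis1 the ratios were 1.85 and 1.49 in KO and 3.05 and 2.43 in WT. In each of these 3 ratios both KO libraries were lower than both WT libraries. Mfn2 over Mfn1 was 2.45 and 2.42 in KO and 2.11 and 2.25 in WT, higher in both KO libraries than in either WT library. Bnip3 over Bnip3l was 1.56 and 1.43 in KO and 1.85 and 1.7 in WT. These ratios are descriptions of 4 libraries, with no test.

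**Figure D3:**
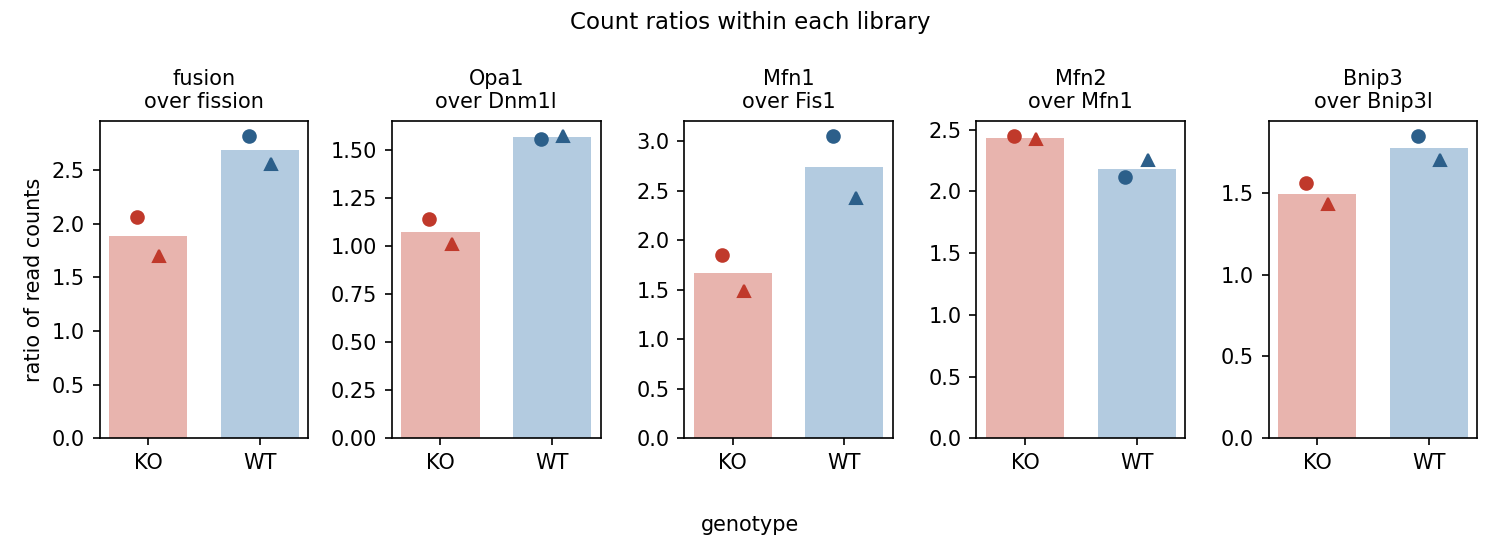
Ratio of read counts within each library, KO left of WT, with bars at the mean of 2 libraries, circles for library 1 and triangles for library 2. The ratio of fusion to fission reads is 2.06 and 1.7 in KO and 2.82 and 2.55 in WT, and the KO points are below the WT points in every panel except Mfn2 over Mfn1.

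Divided by the length of the longest coding transcript in GENCODE M21, levels could be compared between genes. Pink1 was the highest, at a mean of 4305 normalized counts per kilobase in KO and 5261 in WT. In KO the order below Pink1 was Fis1 (2317), Bnip3 (2277), Mfn2 (2042), Mff (1621), Bnip3l (822), Mfn1 (798), Dnm1l (648) and Opa1 (442). The libraries of Fis1 and Bnip3 overlapped there, as did those of Bnip3l and Mfn1. In WT the order was Bnip3 (2995), Mfn2 (2801), Fis1 (2163), Mff (1669), Mfn1 (1224), Bnip3l (912), Dnm1l (648) and Opa1 (646), and the last pair overlapped. Opa1 was thus at the level of Dnm1l in WT and below it in KO, per kilobase. Which transcripts the muscle uses is not known from the table, and the order changed when all annotated exons were counted as length. Mff then became the lowest, at 347 in KO and 357 in WT, and Fis1, at 1281 in KO and 1196 in WT, came below Mfn2 and Bnip3 in both genotypes. On that length Mfn2 (2341) was above Bnip3 (2322) in WT, and Opa1 (511) above Dnm1l (494), by their means. The libraries of each of these pairs overlapped, as did those of Mff and Opa1 (350) in KO.

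Some members share sequence with other annotated genes. A search of GENCODE transcripts for at least 90% identity over 200 bases found 6 other genes for Bnip3, 1 for Bnip3l and 1 for Dnm1l, and none for the other 6. Exons of Bnip3 also shared 504 bases, 22.3% of their length, with the antisense gene Gm45507. Smaller overlaps with other annotated genes were 243 bases in Dnm1l (4.67%), 195 in Mff (2%), and 110 and 69 in Pink1 (4.1% and 2.6%). None of these other genes is a row of the table, and the sources used here do not say how shared reads were assigned. The values of Bnip3, Bnip3l, Dnm1l, Mff and Pink1 carry that uncertainty.

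Beyond the members, 98 genes of fusion and inner membrane upkeep, fission, mitophagy, transport, mitochondrial mass and regulation were measured, of 100 fixed by name. The lists were chosen with earlier results of these data known, so the share of them called is a description only. Of these, 9 fell and 0 rose in the authors' deposited table, with a median log2 ratio of -0.15; over all genes 1.7% passed as lower and 1.01% as higher. The falls of the 9 were 1.4- to 1.51-fold. Their adjusted p in limma was 0.0547 to 0.108, so that none passed there.

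Of 18 genes of fusion and the inner membrane, 3 fell, 15 did not pass, and the median was -0.31. Oma1, the inner membrane protease that cleaves Opa1, had 483 and 530 normalized counts in KO and 802 and 715 in WT (FDR 0.0384 in the authors' deposited table). Letm1, an inner membrane protein of ion exchange, had 1900 and 1852 in KO and 2868 and 2694 in WT (FDR 0.0099, same table). Immt, the core of the complex that holds cristae junctions, had 7055 and 6520 in KO and 9374 and 9586 in WT (FDR 0.0312, same table). The inner membrane protease Yme1l1, which also cuts Opa1, had a log2 ratio of -0.06 (FDR 0.977).

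Of 19 further genes of fission, 1 fell, 18 did not pass, and the median was -0.07. Mtfp1, an inner membrane protein that promotes fission, fell 1.46-fold, to 1142 and 1342 normalized counts in KO, against 1761 and 1862 in WT (FDR 0.021 in the authors' deposited table). Gdap1, an outer membrane fission factor, had 213 and 247 in KO and 127 and 135 in WT, a log2 ratio of 0.82 that missed the threshold at an FDR of 0.0516. Cdk1, the mitotic kinase that phosphorylates Drp1, had 192 and 333 in KO and 107 and 60.6 in WT (FDR 0.208).

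Of 31 genes of mitophagy and its autophagy machinery, 1 fell, 30 did not pass, and the median was -0.13; that is near the 2.71% of all genes that passed. Map1lc3a, which encodes a protein of the autophagosome membrane, was that gene, at 4055 and 5104 normalized counts in KO and 6708 and 7135 in WT (FDR 0.00275 in the authors' deposited table). Bcl2l13, a mitophagy receptor, had 1999 and 1779 in KO and 2659 and 2461 in WT (FDR 0.0991), and Atg13, of the initiating kinase complex, 809 and 847 in KO and 1054 and 1109 in WT (FDR 0.272). Among 5 transport genes Rhot2, an outer membrane GTPase that links mitochondria to motor proteins, fell 1.45-fold, to 2393 and 2484 in KO against 3733 and 3334 in WT (FDR 0.0143), while its relative Rhot1 had a log2 ratio of -0.01. The motor adaptors Trak1 and Trak2 had log2 ratios of -0.26 and -0.23 (FDR 0.488 and 0.644).

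Of 13 genes that follow mitochondrial mass, 2 fell, and the median log2 ratio was -0.17. Citrate synthase (Cs) fell 1.48-fold, to 19362 and 19862 normalized counts in KO against 28631 and 29327 in WT (FDR 0.00422 in the authors' deposited table), and the matrix protease Lonp1 fell 1.42-fold (FDR 0.0384). The matrix chaperone Hspa9 had a log2 ratio of -0.40 (FDR 0.118). Relative to the summed reads of these 13 genes, fusion reads were 0.181 and 0.149 in KO and 0.202 and 0.177 in WT, and the genotypes overlapped. Fission reads relative to the same genes were 0.0875 in both KO libraries and 0.0715 and 0.0693 in WT, higher in KO. This ratio also moves with the 13 genes, whose median was lower in KO. The normalized counts of all 3 fission genes overlapped between genotypes.

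Among 12 regulators, Epas1, which encodes the hypoxia factor HIF-2 alpha, fell 1.51-fold, to 7549 and 6999 normalized counts in KO against 10666 and 11242 in WT (FDR 0.00319 in the authors' deposited table). It is abundant in endothelium, whose markers summed lower in both KO libraries, as given above. Whether the amount of endothelium bears on the Epas1 value was not tested. Foxo3, a forkhead factor known to induce Bnip3 in muscle, had 235 and 194 in KO and 368 and 308 in WT (FDR 0.0869). Esrrg, an estrogen-related receptor, had 508 and 409 in KO and 983 and 677 in WT (FDR 0.272), and Ppargc1b, a coactivator of such receptors, 356 and 244 in KO and 523 and 456 in WT (FDR 0.106). The median of the 12 was -0.39, with 7 below 0.

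**Figure D4:**
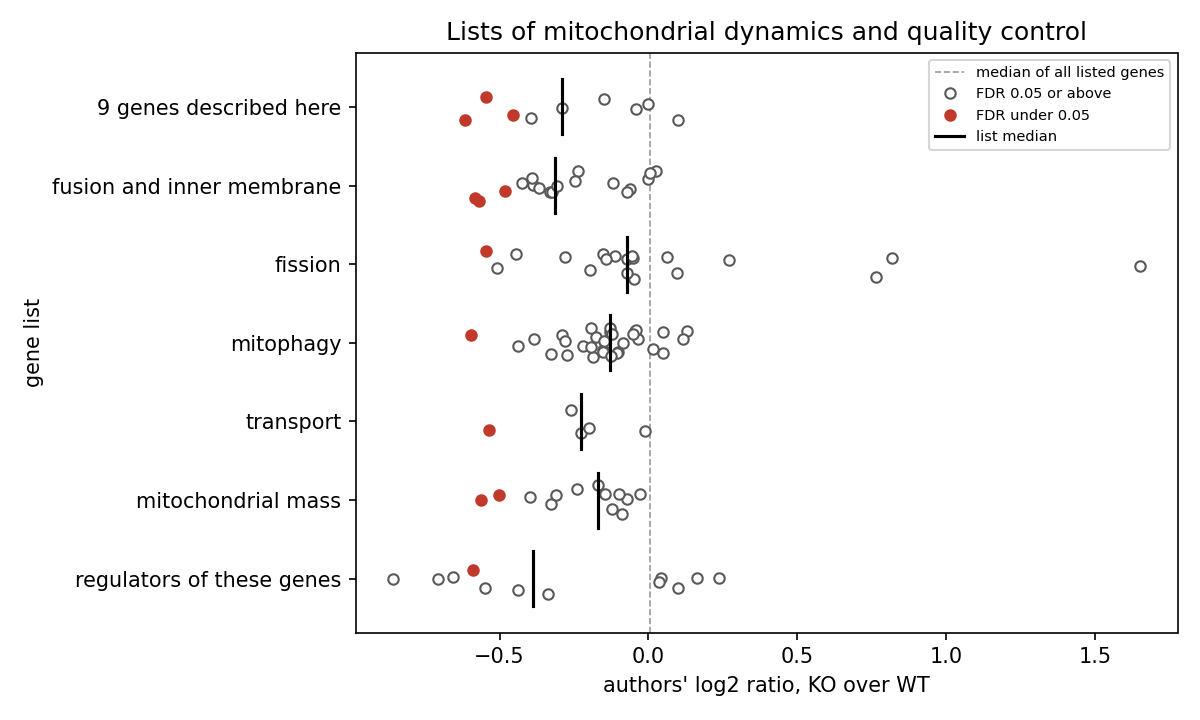
Authors' log2 ratio, KO over WT, of the 9 genes and of the 98 further genes by list, 1 circle per gene, filled in red where the FDR was under 0.05, with a black line at each list's median and a dashed line at the median of all genes. The filled circles all lie below 0, 3 among the 9 genes and 9 among the lists, and the medians run from -0.39 for the regulators to -0.07 for fission.

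Across the 4 libraries, the genes nearest to a member were found by Euclidean distance of centred log2 values, among 12099 others with a mean of at least 50. Nearest to Mfn1 were Slc6a9, Gfm1 and Xpnpep3, at distances of 0.03, 0.05 and 0.05. Of these Gfm1, a mitochondrial elongation factor, passed the authors' test (FDR 0.00142), with a log2 ratio of -0.66. Nearest to Bnip3 were Narfl, Ap5s1 and Tmem63b, and nearest to Fis1, the fission gene of largest absolute ratio, were Slc35b2, Vapa and Zfand6. None of these 6 passed. With 4 values per gene such likeness is a description only.

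The authors also deposited a table of upstream regulators from the Ingenuity program, in which BNIP3L was the only member listed. Its activation score there was -3.64, called inhibited, with a p-value of overlap of 7.12e-14, and 2 of 224 regulators had a lower score. The score is built on 17 target genes and not on Bnip3l itself, and 15 of them had a log2 ratio above 0 in the deposited gene table, with a median of 1.33. Of the 17, 3 passed the authors' FDR: E2f1 and Ccl2 were higher in KO and Tfrc lower. The transcript of Bnip3l had a log2 ratio of -0.15 (FDR 0.851).

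No setting brought a member past limma's adjusted threshold, as the plot by setting shows for the estimates. Mfn1 lay between -0.71 and -0.50, Opa1 between -0.60 and -0.44, and Mfn2 between -0.51 and -0.35 over 13 other settings, below 0 in each. Without WT library 1 the differences were -0.51 for Mfn1, -0.52 for Opa1 and -0.40 for Mfn2. Without WT library 2 they were -0.71, -0.58 and -0.51. Each of these fits rests on 1 WT library, so its spread within WT is unknown.

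**Figure D5:**
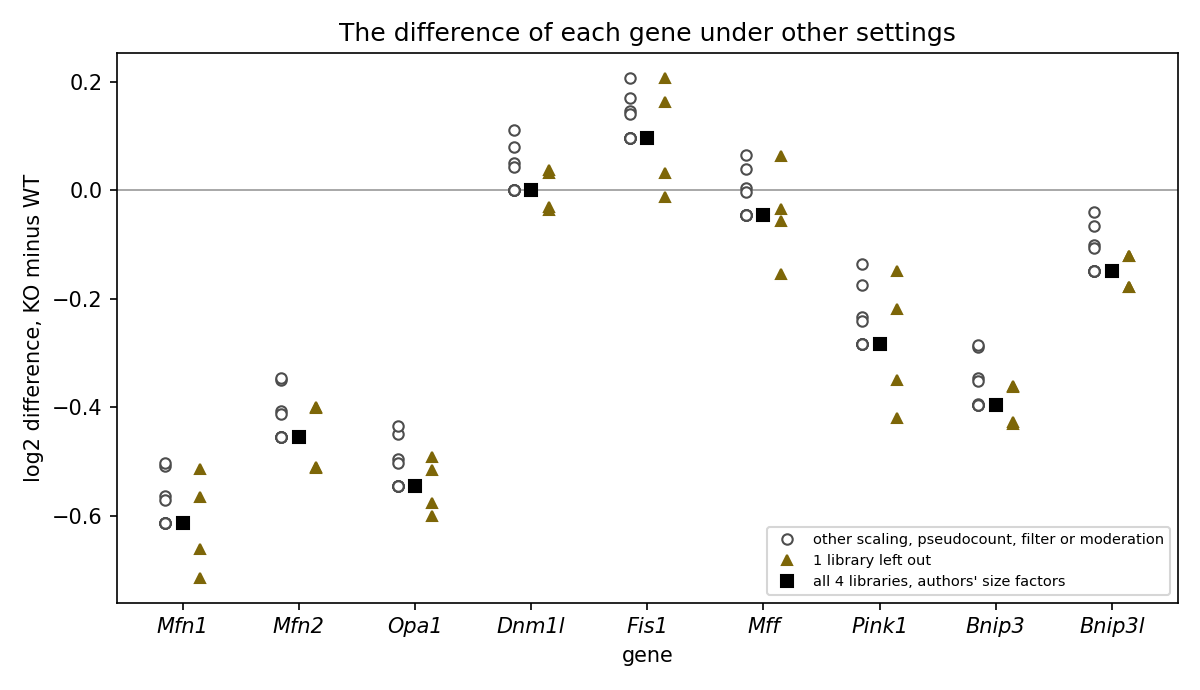
limma log2 difference, KO minus WT, of each gene with all 4 libraries (black squares), under other scalings, pseudocounts, filters or moderation (open circles) and with 1 library left out (triangles). Mfn1, Mfn2, Opa1, Pink1, Bnip3 and Bnip3l stay below 0 in all 13 settings, while Dnm1l, Fis1 and Mff cross 0.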

How the data were processed

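Library preparation from Trizol RNA followed Illumina protocols, per the labels. Reads were aligned to mm10, per the submitters' processing notes; for the aligner, counter and annotation the sources used here give nothing. The gene table of the authors holds a mean signal (normalized read count) per genotype, a log2 ratio, and a p-value with its FDR, from DESeq per the table's name. The activation score and p-value of overlap were deposited by the authors from the Ingenuity program, per the file headers. A line of that gene table (1 in all) is not analysed here.

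Each mean was solved as whole multiples of 2 steps, with a tolerance of 1e-13 of the value; 1 solution existed for all 14617 genes in each column. The labels name 3 mice per genotype, and which 2 libraries entered is not stated. Recovered size factors were 1.1 and 0.97 in KO and 1 and 0.94 in WT. The planned tests were the authors' FDR under 0.05 and limma 3.58.1 (R 4.3.3) on log2 normalized counts with a pseudocount of 1, for genes with a mean of at least 10, with trend and robust moderation, 2 residual degrees of freedom and Benjamini-Hochberg adjustment over 14053 genes. That scale understates the change of low genes. Recovery and fit were tested on simulated data. Alternatives were other scalings, pseudocounts, filters, no robust moderation and each library left out. Outside the members, the genes named are those past the authors' FDR. In lists with at most 2 of these, the 3 of largest absolute ratio at a mean of at least 50 were named too. Yme1l1, Rhot1, Kdr, Flt1, Col3a1, Fabp4, Adipoq, Myh1, Myh4, Gfm1 and the named targets of BNIP3L were added after their values were seen. A further gene of the group is not reported here. The members and lists were chosen with earlier results of these data known. Copies were searched with BLAST 2.17.0.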

Additional observations from a re-analysis of the deposited data

How the results depend on the processing

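The authors' FDR called 3 of the 9 members and limma 0, with 0 also under each of the 13 alternatives, including each library left out. Of the 98 list genes the authors' FDR called 9 at 0.05 and 15 at 0.1. limma called 0 of these with the authors' size factors, total counts, the upper quartile, quantile normalization, a pseudocount of 0.5 or 5, no filter, a mean of at least 50, or no robust moderation. It called 1, Gdap1, with totals without the 20 most abundant genes. With 1 library left out it called 0 to 4: 2 when KO library 1 was absent, 4 when KO library 2 was, and 0 when either WT library was; a lone library is then assumed to vary like the other genotype's. The cause of these changes was not tested.

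Dnm1l changed sign, to 0.0495 with total counts, 0.0431 with the upper quartile, 0.0786 with quantile normalization and 0.11 with totals without the 20 most abundant genes, and ran from -0.0372 to 0.0372 with 1 library left out. Mff became 0.00354, 0.0383 and 0.0641 with total counts, quantile normalization and totals without the top 20, and ran from -0.15 to 0.0627 with 1 library left out. Fis1 ran from -0.0126 to 0.206 with 1 library left out. Totals without the top 20 moved the median of all genes by 0.11, as much as Dnm1l moved. The split of limma's calls over all genes was 60 higher and 65 lower, against 156 and 50 with those totals, 62 and 38 with total counts, and 71 and 50 with the upper quartile. Of all genes limma called 125, against 27 without robust moderation and 11 to 381 with 1 library left out.

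No paired analysis was possible because the recovered libraries carry no replicate number. Counting error was at most 2.26% for each of the 9 genes, and the number of libraries was 2 per genotype.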
